A study of Mus musculus with 12 samples.

Results

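Chromatin accessibility in brown fat was compared between AKO mice, which lack BAF60a in adipocytes, and flox mice. All 58558 peaks of the brown fat table were used, of the 98116 peaks of the 2 fat depots that were assayed, together with the 6 brown fat samples among the 12 samples of the series. The description below turns on genes to which several peaks were assigned and on classes of distance from the nearest gene start, outside Ucp1 and the other genes, 16 in all, that the study marked by name among its brown fat peaks. ATAC-seq, in which a transposase cuts open DNA, gave the reads of each peak, which were scaled by the size factors of the samples and are here called normalized reads.

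Flox mice carry floxed alleles of Smarcd1, the gene of BAF60a, and no Cre, and AKO mice carry the same alleles and an Adiponectin-Cre transgene, which is active in adipocytes. All mice were of the C57BL/6 strain, and each of the 3 flox and 3 AKO samples was the whole brown adipose tissue of 1 mouse, so that nuclei of endothelial, immune and other cells without the deletion were also sampled. The age and the housing temperature of these mice are not given in the sources used here. The inguinal fat samples came from cold-acclimated mice of the same genotypes, with 3 aliquots of 1 tissue pool per genotype, and served only to look up brown fat regions in another depot. Reads in peaks ran from 10115267 to 27500738 in the brown fat of flox mice and from 6336670 to 13821838 in that of AKO mice, so that small peaks were measured less precisely in AKO replicate 2 than in the other samples.

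BAF60a is a subunit of the SWI/SNF (BAF) complexes, which use ATP to slide and evict nucleosomes and are brought to enhancers and promoters by transcription factors. In brown adipocytes, fatty acids released from lipid droplets are burned in mitochondria, and the energy is given off as heat. The enhancers of this program are often far from the genes that they serve and are occupied by PPARγ with its partner RXR, by EBF2 and by members of the C/EBP family. PPARγ and RXR bind together to DR1 elements, in which AGGTCA is repeated after a spacer of 1 base. A peak is named here after the gene with the nearest start, which need not be the gene that it regulates.

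Sequences are given first for the peaks that the later results turn on. They are the middle 200 bases of a peak, or the whole peak where it is shorter, on the plus strand of the mouse assembly GRCm38.p6, to which mm10 corresponds. Capitals mark matches to a DR1 element (with up to 2 mismatches) or to the NBRE letters AAAGGTCA, which the receptors NUR77 and ERR bind. The first 3 belong to the peaks with the smallest p of Gm4710 (chr17:75895023-75895222), Dio2 (chr12:90592223-90592422) and Mir691 (chr16:73653207-73653406), the lower genes that ranked first. All 3 windows are intergenic.
Gm4710: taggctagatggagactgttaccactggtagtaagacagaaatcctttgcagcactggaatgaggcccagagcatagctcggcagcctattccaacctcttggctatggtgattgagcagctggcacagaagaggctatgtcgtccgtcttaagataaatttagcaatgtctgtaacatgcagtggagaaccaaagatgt
Dio2, 146714 bp downstream: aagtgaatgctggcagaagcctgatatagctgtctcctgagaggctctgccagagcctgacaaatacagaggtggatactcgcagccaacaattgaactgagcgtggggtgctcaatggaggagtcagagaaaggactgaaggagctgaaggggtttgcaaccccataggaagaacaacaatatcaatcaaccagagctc
Mir691: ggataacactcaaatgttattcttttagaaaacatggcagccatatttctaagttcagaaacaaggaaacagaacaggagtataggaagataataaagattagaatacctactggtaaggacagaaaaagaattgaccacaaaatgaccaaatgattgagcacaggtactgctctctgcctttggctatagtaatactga

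The next 3 sequences are those of the peaks with the smallest p at Kng2 (chr16:23040663-23040862, intergenic), Eif4a2 (chr16:23093966-23094165, over the processed pseudogene Gm8134 and outside other annotated genes) and Kng1 (chr16:23061870-23061980, in an intron of Kng1, a peak of 111 bp).
Kng2: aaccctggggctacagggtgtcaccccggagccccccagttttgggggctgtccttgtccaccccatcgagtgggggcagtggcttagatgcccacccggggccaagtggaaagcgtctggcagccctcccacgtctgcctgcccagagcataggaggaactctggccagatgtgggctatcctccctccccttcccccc
Eif4a2: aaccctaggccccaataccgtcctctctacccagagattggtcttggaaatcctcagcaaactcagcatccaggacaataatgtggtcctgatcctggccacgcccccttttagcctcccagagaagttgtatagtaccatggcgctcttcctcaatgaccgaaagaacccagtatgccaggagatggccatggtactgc
Kng1: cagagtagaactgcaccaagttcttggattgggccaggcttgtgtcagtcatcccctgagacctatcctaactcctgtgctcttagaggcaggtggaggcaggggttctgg

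The last 4 were chosen after their values had been seen. They are the peak of Dio2 with the smallest adjusted p in DESeq2 (chr12:90644035-90644234, intergenic), and lower peaks that held a DR1 match beyond Ly86 (chr13:37484797-37484996, intergenic), at Cpt1b (chr15:89426062-89426261, in a peak 299 bp upstream of its start) and at Neurod1 (chr2:79519965-79520164, intergenic). At Cpt1b the DR1 and NBRE matches overlap, since both contain AGGTCA.
Dio2, 94902 bp downstream: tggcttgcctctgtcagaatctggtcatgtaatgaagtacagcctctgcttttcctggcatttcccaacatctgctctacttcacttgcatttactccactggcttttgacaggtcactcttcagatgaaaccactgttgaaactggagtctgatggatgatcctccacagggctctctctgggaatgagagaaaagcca
Ly86: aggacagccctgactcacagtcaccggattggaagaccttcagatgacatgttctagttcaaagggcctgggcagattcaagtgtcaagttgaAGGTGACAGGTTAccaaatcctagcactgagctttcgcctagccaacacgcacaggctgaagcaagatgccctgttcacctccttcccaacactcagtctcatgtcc
Cpt1b: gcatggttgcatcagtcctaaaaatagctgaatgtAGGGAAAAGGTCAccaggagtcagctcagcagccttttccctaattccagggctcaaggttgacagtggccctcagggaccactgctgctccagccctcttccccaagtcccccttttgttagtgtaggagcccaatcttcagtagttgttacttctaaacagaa
Neurod1: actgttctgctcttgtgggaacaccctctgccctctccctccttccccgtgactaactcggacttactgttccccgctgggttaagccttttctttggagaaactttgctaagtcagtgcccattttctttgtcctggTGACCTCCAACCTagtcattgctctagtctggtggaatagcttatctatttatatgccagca

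The targeted gene was examined first. The Smarcd1 peak 2030 bp downstream of the start held 136, 201 and 185 normalized reads in the 3 flox mice and 23.7, 57.9 and 26.9 in the AKO mice, each time in the order of the replicate numbers. Its log2 fold change was −2.98 (adjusted p = 0.269 in limma, 4.0e-11 in DESeq2). Deleted DNA and closed chromatin cannot be told apart at this peak. The promoter peak of Smarcd1 ranged from 369 to 485 normalized reads among flox mice and from 412 to 497 among AKO mice, and the genotypes overlapped there.

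Genotypes were called non-overlapping where every AKO mouse lay on the same side of every flox mouse. Of all peaks, 5175 (8.84%) were lower and 5134 (8.77%) were higher in every AKO mouse. In the limma fit over all peaks, with the samples' scores on the first principal component (PC1) as covariate, 0 peaks passed an adjusted p of 0.1 in either direction, while 3274 lower (5.59%) and 2027 higher peaks (3.46%) had an unadjusted p under 0.05. DESeq2 with the same covariate called 127 lower peaks (0.217%) and 47 higher peaks (0.0803%), edgeR called 67 (0.114%) and 17 (0.029%), and DESeq2 without PC1 called 303 (0.517%) and 300 (0.512%). These shares are of all peaks. DESeq2 gave some weak peaks no adjusted p, so that it could not call them. The PC1 scores were −98.2, −41.8 and 14.6 in flox and −0.62, 112 and 13.5 in AKO mice. The lowest was that of the deepest sample and the highest that of the shallowest, so PC1 was partly aligned with genotype and depth. A call with PC1 can therefore differ from the plain values. The Cish peak, called higher in DESeq2, held 1430, 847 and 605 normalized reads in flox and 1190, 396 and 784 in AKO mice. Lower peaks were the stronger and wider ones, with a median of 192 normalized reads and 531 bp, against 87.3 normalized reads and 432 bp in higher peaks and 125 normalized reads and 482 bp in all. Without PC1, weak and strong peaks as a whole also shifted in opposite directions, as given below by distance class. With total reads in peaks as the scale in place of size factors, 3939 peaks were lower and 6043 higher, so that the lower share of the non-overlapping peaks went from 50.2% to 39.5%.

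Lower peaks were least frequent within 1 kb of a gene start and most frequent beyond 100 kb. Of the 12563 peaks within 1 kb of a start, 764 (6.08%) were lower and 1245 (9.91%) were higher in every AKO mouse. Of the 10551 peaks at 1 to 10 kb, 9.35% were lower and 8.81% higher, and of the 28332 peaks at 10 to 100 kb, 9.12% were lower and 8.57% higher. Of the 7112 peaks beyond 100 kb, 842 (11.8%) were lower and 531 (7.47%) were higher. The gap in the lower share between the farthest and the nearest class, 5.76 percentage points, turned to −2.13 without flox replicate 3 and came to 2.07 without AKO replicate 3, 10.2 without flox replicate 1, 10.3 without AKO replicate 1 and 10.2 without AKO replicate 2.

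The classes also differ in signal, with a median of 372 normalized reads within 1 kb and 84.1 beyond 100 kb, and the shares depend on signal. Among peaks with a mean of 300 or more normalized reads, the lower share was 8.13% within 1 kb, 17.3% at 1 to 10 kb, 20.4% at 10 to 100 kb and 26.3% beyond 100 kb, and the higher share was 3.18%, 3.07%, 2.71% and 1.8%. Among peaks under 100 normalized reads, the lower share ran from 1.2% within 1 kb to 7.61% beyond 100 kb, and the higher share from 23.6% to 10%. The lower share was thus greater far from starts in each signal class, and the share of higher peaks was greatest among small promoter peaks. Without flox replicate 3, the gap in the lower share was 8.68, 11.8 and 10.7 points in peaks of under 100, of 100 to 300 and of 300 or more reads, and under all 8 alternatives it stayed above 0 in each of the 3 signal classes. The gap in the higher share stayed below 0 in the weaker classes, but in peaks of 300 or more reads, where it was −1.38 points, it turned to 3.04 without flox replicate 3 and reached −3.37 with total reads in peaks, −3.34 without AKO replicate 1, −2.62 without AKO replicate 2 and −4.14 without flox replicate 1.

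**Figure D1:**
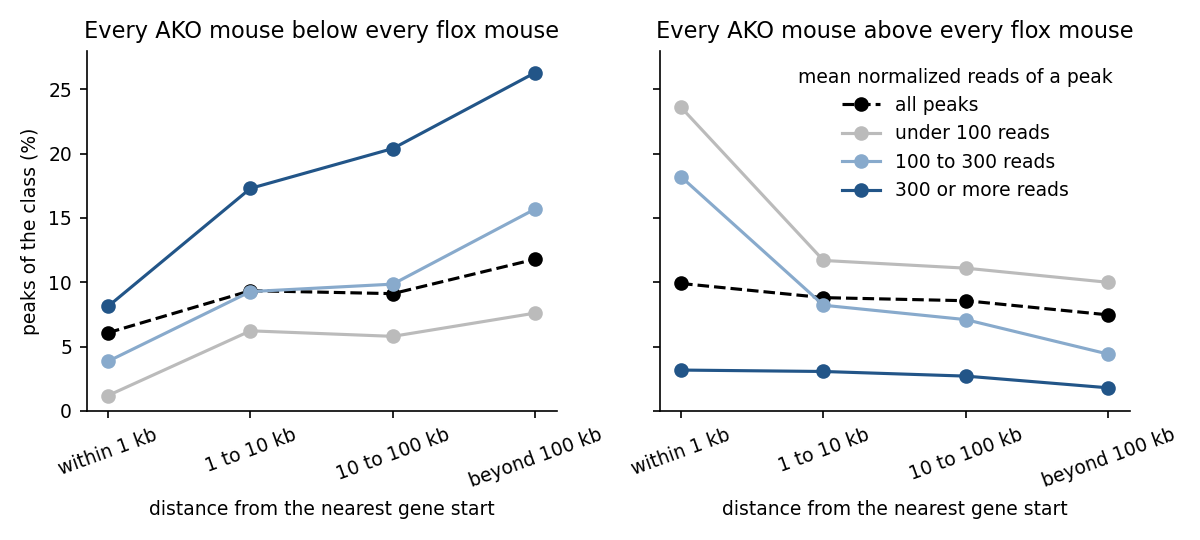
Share of peaks (y axis, %) in which every AKO mouse was below (left) or above (right) every flox mouse, by distance of the peak from the nearest gene start (x axis), for all peaks (dashed) and for peaks of 3 classes of mean normalized reads (lines). The lower share ends at 26.3% beyond 100 kb in the strongest peaks, and the higher share begins at 23.6% within 1 kb in the weakest.

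With the PC1 covariate in the limma fit, 1.05% of the peaks within 1 kb and 9.93% of those beyond 100 kb had a lower value at an unadjusted p under 0.05. The higher direction held 2.66% and 2.98%. The median log2 fold change went from 0.11 within 1 kb to −0.11 beyond 100 kb, and without the covariate it was −0.05 in both classes. Without the covariate it depended on signal. In peaks under 100 normalized reads it was 0.46 within 1 kb and 0.07 beyond 100 kb. In peaks of 300 or more it was −0.13 and −0.23. The part of sequencing depth in this shift was not tested. The part of a sample's normalized reads that lay within 1 kb was 46.0%, 43.9% and 42.1% in flox and 43.7%, 40.5% and 45.7% in AKO replicates 1, 2 and 3, and the genotypes overlapped. The difference of −0.739 percentage points had an exact permutation p of 0.7 (two-sided, smallest possible p 0.1), and the other classes had exact permutation p-values of 0.7, 0.6 and 0.9. Peaks upstream and downstream of the nearest start had like lower shares beyond 100 kb, 11.8% and 11.9%.

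In each class, the lower and the higher peak with the smallest p were taken. Within 1 kb, the lower peak lay 354 bp downstream of the start of Fmo1, a flavin monooxygenase of the endoplasmic reticulum. It held 1049, 990 and 1045 normalized reads in flox and 547, 442 and 409 in AKO mice, a log2 fold change of −1.09 (adjusted p = 0.417 in limma, 7.88e-06 in DESeq2). Since the peaks of this paragraph were picked for a small p among non-overlapping peaks, a wide gap between groups follows from the choice. At 1 to 10 kb, the lower peak lay at −2137 bp from the start of Tmem260 and held 144, 143 and 158 normalized reads in flox and 59.8, 65.7 and 66.2 in AKO mice. At 10 to 100 kb it was a peak of under 20 normalized reads in the introns of Hmox2 and Cdip1, and beyond 100 kb it was an intergenic peak assigned to Fam92a with a range of 128 to 163 normalized reads among flox mice and of 61.9 to 108 among AKO mice. The higher peaks of the classes were assigned to Angptl7 (in an intron of Mtor), Kng1, Dnah6 and A930031H19Rik. The Dnah6 peak, in an intron of this axonemal dynein gene, held 47.5, 43.6 and 36.2 normalized reads in flox and 114, 94.6 and 106 in AKO mice (adjusted p = 0.417 in limma, 0.0268 in DESeq2).

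A gene with at least 4 peaks was called concordant where at least 50% of its peaks were non-overlapping in one direction and none in the other. Of 5269 such genes, 149 (2.83%) were concordant lower and 126 (2.39%) concordant higher, and 143 of the lower and all 126 of the higher ones lay outside the 16 marked genes. With size factors, large groups of peaks were more often lower. Of the 149 lower genes, 26 had 5 or more non-overlapping peaks, with at most 14, against 4 of the 126 higher genes, with at most 6. These large groups were not recounted on another scale. With total reads in peaks as the scale, 88 genes were concordant lower and 172 higher, so that the lower share went from 54.2% to 33.8%. Of the 11 lower genes named below, Gm4710, Dio2, Mogat2 and 4930591E09Rik were no longer concordant on that scale. Peaks of a gene come from the same mice and are not replicates of each other.

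As a test over all genes with 3 or more peaks, the normalized reads of all peaks of a gene were summed. Of these 7385 genes, limma with the PC1 covariate called 1 lower gene (0.0135%) and 3 higher genes (0.0406%) at an adjusted p under 0.1, and the 3 were Kng2, Eif4a2 and Kng1. The lower gene, Gpr39, an orphan G protein-coupled receptor, had 394, 505 and 565 normalized reads in flox and 319, 433 and 349 in AKO mice (log2 fold change −0.75, adjusted p = 0.0989). Without PC1 the log2 fold change was −0.41. Its genotypes overlapped, and only 1 of its 5 peaks did not, so that it was not a concordant gene. DESeq2 with PC1 called 77 lower genes (1.04%) and 26 higher genes (0.352%), and 25 of the concordant lower and 8 of the concordant higher genes were among its calls. DESeq2 without PC1 called 194 lower (2.63%) and 89 higher genes (1.21%), and edgeR called 30 (0.406%) and 10 (0.135%). At an unadjusted p under 0.05, limma gave 423 lower (5.73%) and 397 higher genes (5.38%). Sums were non-overlapping in 902 lower (12.2%) and 569 higher genes (7.7%), and among the concordant genes this held for 120 of the lower and 80 of the higher ones.

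Outside the marked genes, the thermogenic gene that ranked first among the named concordant lower genes was Dio2. It encodes the deiodinase that turns thyroxine into the active hormone in brown fat. The gene occupies bases 90724552 to 90738438 of chromosome 12 (mm10, minus strand). Its 16 peaks summed to 3032, 3230 and 3315 normalized reads in flox and 2198, 2111 and 2055 in AKO mice, and the AKO mean was 66.4% of the flox mean. The log2 fold change of the sum was −0.62 (standard error 0.110, adjusted p = 0.109 in limma, 3.75e-05 in DESeq2). All 16 peaks had a negative fold change, and 8 were non-overlapping with size factors. With total reads in peaks as the scale Dio2 was no longer concordant.

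The Dio2 peaks lay around the gene and far downstream of it. At the start of the gene, the promoter peak held 408, 341 and 380 normalized reads in flox and 273, 297 and 249 in AKO mice. More than 90 kb downstream lay 11 peaks, of which 6 were non-overlapping. The strongest of these, 94902 bp downstream, held 573, 841 and 740 normalized reads in flox and 402, 417 and 303 in AKO mice, with a log2 fold change of −1.15 (adjusted p = 1.41e-04 in DESeq2). The peak shown first among the sequences, 146714 bp downstream, held 134 ± 33.7 normalized reads in flox mice and 103 ± 37.2 in AKO mice (SD, n = 3). At this peak AKO replicate 2 lay above flox replicates 1 and 2, so that its small p came only with the PC1 covariate.

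**Figure D2:**
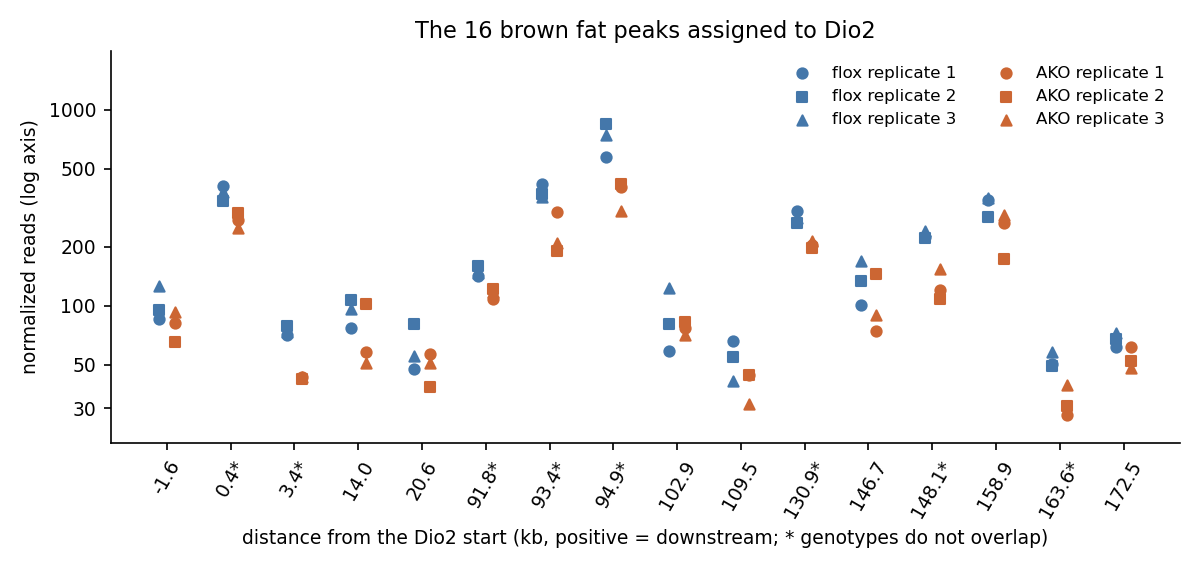
Normalized reads (y axis, log axis) of the 16 brown fat peaks assigned to Dio2 in each mouse (points, blue for flox and orange for AKO), in order of distance from the Dio2 start (x axis, kb). Stars mark the 8 peaks at which the genotypes do not overlap, 6 of them more than 90 kb downstream.

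Genes of the PGC-1 coactivators, which switch on mitochondrial biogenesis, also had several lower peaks. Ppargc1a had 33 peaks, all with a negative fold change, of which 9 were lower in every AKO mouse and 0 higher, below the share set for concordance. Its sum was 6492, 7235 and 6774 normalized reads in flox and 5005, 5037 and 4985 in AKO mice (log2 fold change −0.47, adjusted p = 0.171 in limma, 0.00305 in DESeq2). Ppargc1b had 7 lower and 1 higher among 21 peaks, and its summed log2 fold change was −0.22 (adjusted p = 0.508 in limma, 0.491 in DESeq2). Its neighbour A530050N04Rik, a transcript for which no coordinates were matched, had 9 lower among 13 peaks, and its sum was 7743, 8288 and 7707 in flox and 5471, 4970 and 5010 in AKO mice (log2 fold change −0.58, adjusted p = 0.121 in limma, 5.21e-05 in DESeq2). Some of the A530050N04Rik peaks, lower ones among them, lay inside the protein-coding gene Arhgef37 or in noncoding genes. The last 3 peaks upstream of Ppargc1b and the first 2 of A530050N04Rik formed an unbroken run of 5 lower peaks over 34.3 kb of chromosome 18. The A530050N04Rik peak nearest to Ppargc1b held 1788, 1766 and 1523 normalized reads in flox and 969, 715 and 712 in AKO mice.

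Enzymes of triglyceride synthesis shared the longest run of lower peaks. On chromosome 7, 10 consecutive peaks over 53.8 kb, 7 assigned to Dgat2 and 3 to Mogat2, were lower in every AKO mouse, with log2 fold changes from −1.23 to −0.26. Runs were counted with size factors only, and with total reads in peaks as the scale Mogat2 was no longer concordant. Dgat2, one of the marked genes, encodes the enzyme that adds the last acyl chain, and Mogat2 encodes the acyltransferase that makes diacylglycerol from monoacylglycerol. The 6 peaks of Mogat2 summed to 2709, 3061 and 3163 normalized reads in flox and 1986, 2098 and 2163 in AKO mice (log2 fold change −0.60, standard error 0.114, adjusted p = 0.121 in limma, 2.02e-04 in DESeq2). The peak over the Mogat2 start was small, with a log2 fold change of −0.33, and the genotypes overlapped there.

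The next longest run outside the marked genes, 7 peaks over 119 kb of chromosome 1, lay between Cdh20, a cadherin gene, and Rnf152, which encodes a ubiquitin ligase of the lysosome. Ucp1 itself had a run of 8. The Cdh20 peak of the run held 60.6, 62.1 and 94.4 normalized reads in flox and 20.6, 36.7 and 36.5 in AKO mice, and the most open Rnf152 peak of the run held 607, 483 and 341 in flox and 240, 174 and 165 in AKO mice. The 6 Rnf152 peaks of the run lie 240183 to 263839 bp downstream of the Rnf152 start. Over all 20 peaks of Rnf152, 13 were lower in every AKO mouse and 0 higher, and the sum was 5423, 5773 and 5036 normalized reads in flox and 4015, 3890 and 3601 in AKO mice (log2 fold change −0.47, adjusted p = 0.202 in limma, 0.0125 in DESeq2). In all, 24 runs of 5 or more lower peaks were counted, which held 138 of the 5175 lower peaks. For higher peaks there were 6 such runs, which held 33 of 5134. These runs were not recounted with total reads in peaks as the scale. Lower runs of 6 lay at Acsl1, which encodes the acyl-CoA synthetase that activates fatty acids for oxidation, at Gpat4, which encodes a glycerol-3-phosphate acyltransferase, at Slc4a4, which encodes a bicarbonate transporter, and at Mbnl1, Fign and Gm14092.

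**Figure D3:**
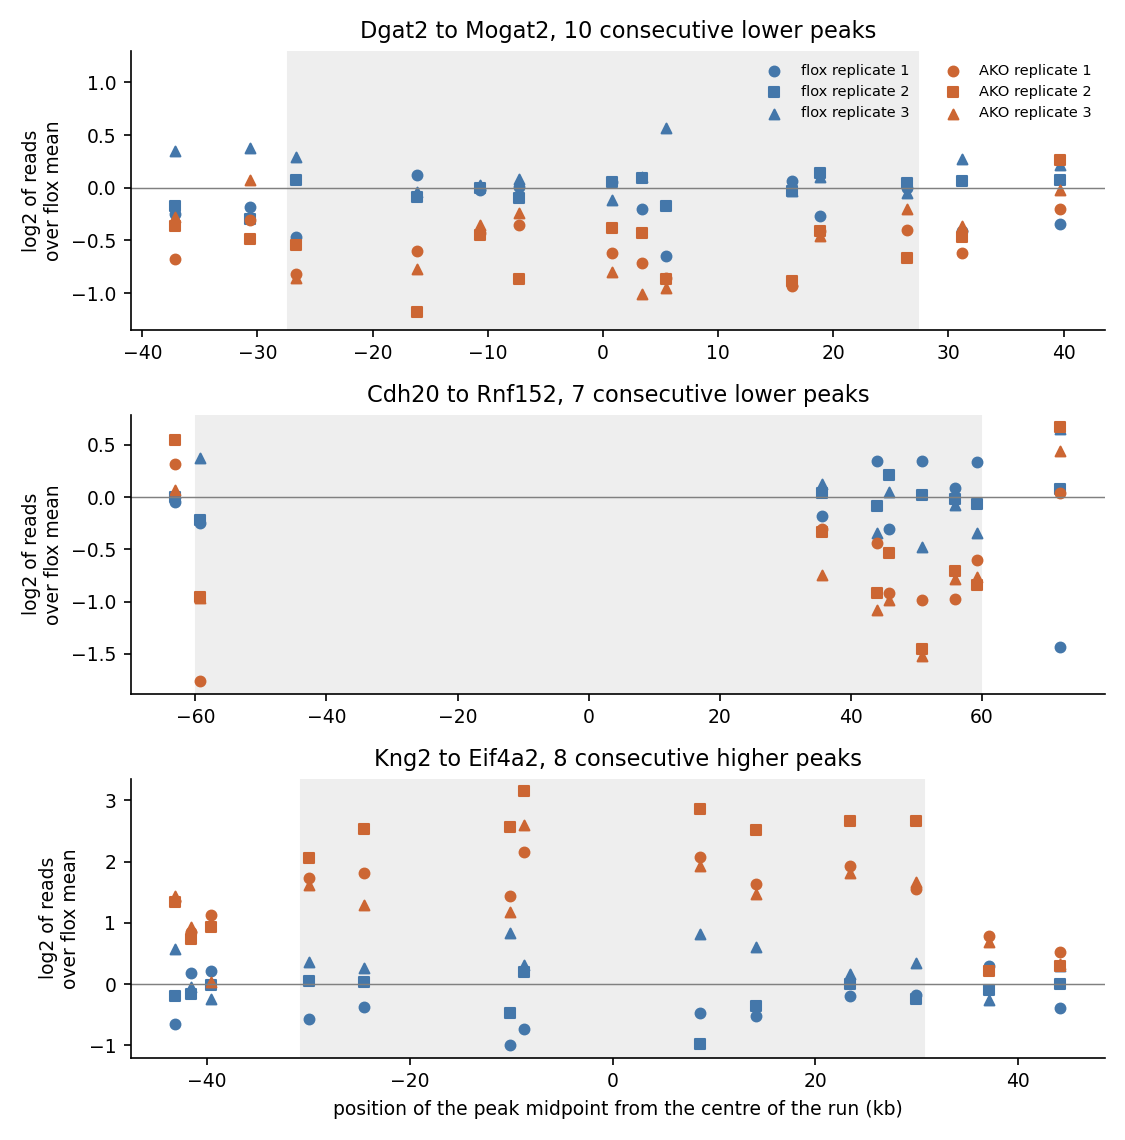
Log2 of the normalized reads of each mouse over the flox mean (y axis) at the peaks of 3 runs (points, blue for flox and orange for AKO), by position from the centre of the run (x axis, kb). The shaded stretch is the run, in which all AKO points of a peak lie on the same side of its flox points, with 10 lower peaks at Dgat2 to Mogat2, 7 lower peaks at Cdh20 to Rnf152 and 8 higher peaks at Kng2 to Eif4a2.

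Pex5, which encodes the import receptor of peroxisomes, had 6 lower peaks among 8 (4062, 4654 and 3731 normalized reads against 2786, 2698 and 2724 in AKO mice, log2 fold change −0.54, adjusted p = 0.173 in limma, 0.00468 in DESeq2). A run of 5 of them lay upstream of Pex5, and its last 3 peaks lay inside Clstn3, a gene whose end also gives rise to the adipocyte protein calsyntenin-3β. The peak over an untranslated region of Clstn3 held 516, 698 and 520 normalized reads in flox and 258, 365 and 212 in AKO mice (log2 fold change −1.34, adjusted p = 3.83e-05 in DESeq2). The 3 peaks inside Clstn3 thus had larger negative fold changes than the Pex5 promoter, where the log2 fold change was −0.30.

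Some of the other lower genes that ranked first had their lower peaks far from the start of the gene that names them. Neurod1, a transcription factor gene of neurons and endocrine cells, had 4 lower peaks among 5, all 4 of them upstream at −42849 to −80993 bp from the start, while the peak in the gene body had a log2 fold change of 0.23. Its most open peak held 336, 324 and 339 normalized reads in flox and 171, 182 and 178 in AKO mice, with little spread in either group (adjusted p = 0.0134 in DESeq2). The 4 peaks of Mir691 lay 286541 to 694535 bp from this microRNA and 1 was in an intron of Robo2, and their sum was 626, 608 and 607 normalized reads in flox and 407, 446 and 343 in AKO mice. The 9 peaks of 4930591E09Rik, 5 of them lower, summed to 1398, 1199 and 1468 in flox and 963, 997 and 747 in AKO mice. For Gm4710 (2 of 4 peaks lower) and Apol7d (2 of 4), the sums were weaker, at 74.9% and 84.9% of the flox mean, and those of Apol7d overlapped between genotypes. Cdo1, which encodes the enzyme that oxidizes cysteine toward taurine, had 2 lower among 4 peaks with a sum of 957, 1002 and 953 in flox and 680, 717 and 524 in AKO mice. Alpk3, a kinase gene of muscle, had 4 lower among 6 peaks with a sum of 1457, 1364 and 1547 in flox and 1037, 1068 and 1074 in AKO mice. None of these 7 sums passed 0.1 in limma, in which their adjusted p ran from 0.109 to 0.168. In DESeq2 with PC1 the adjusted p was 0.0117 for Mir691, 0.0330 for Gm4710, 0.0695 for Neurod1 and 0.0231 for Alpk3. There it was 0.00732 for both Cdo1 and 4930591E09Rik, and 0.221 for Apol7d.

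Among concordant lower genes with many peaks, chosen here after their values had been seen, Ppp2r5a, which encodes a regulatory subunit of protein phosphatase 2A, had 14 lower peaks of 22, and its sum was 8739, 8471 and 8236 normalized reads in flox and 6608, 5248 and 6594 in AKO mice. Axin2, a feedback inhibitor of Wnt signalling, had 9 of 14 and summed to 4914, 4907 and 4890 in flox and 3922, 3861 and 3717 in AKO mice. Atxn2 had 7 of 9, and its sum was 3354, 3288 and 3037 in flox and 2391, 2310 and 2256 in AKO mice. All 3 groups of peaks had lower sums in every AKO mouse, and their adjusted p in limma was 0.386, 0.272 and 0.202.

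**Figure D4:**
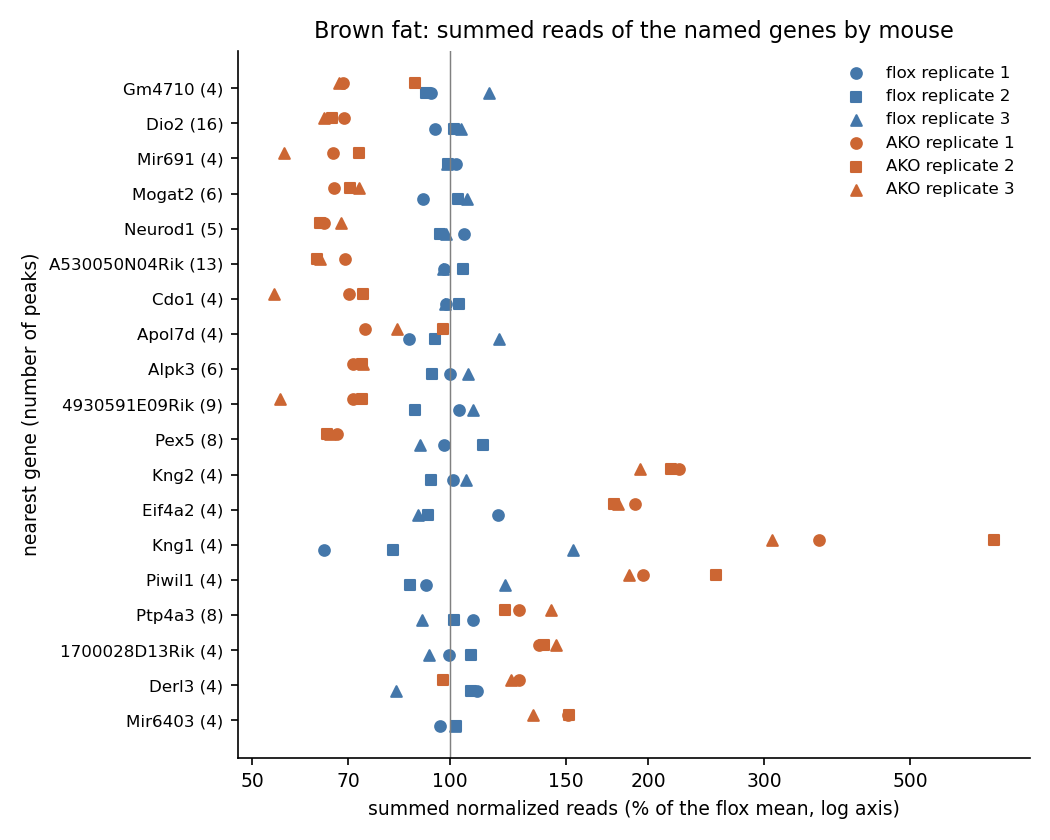
Summed normalized reads of each named gene in each mouse as a percentage of its flox mean (x axis, log axis), with the number of peaks in brackets (points, blue for flox and orange for AKO). The 11 lower genes stand above the 8 higher genes, the AKO points of Apol7d and Derl3 overlap the flox points, and those of Kng1 reach the highest values.

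The higher genes that ranked first were 3 neighbours on chromosome 16. Kng2 and Kng1 encode kininogens, plasma proteins made by the liver, and Eif4a2 encodes an RNA helicase of translation initiation. The 4 peaks of Kng2 summed to 251, 232 and 263 normalized reads in flox and 553, 539 and 483 in AKO mice, which gave a log2 fold change of 1.03 with a standard error of 0.121. The 4 peaks of Eif4a2 summed to 1023, 801 and 774 in flox and 1650, 1534 and 1559 in AKO mice (1.05, standard error 0.127), and those of Kng1 to 46.0, 58.4 and 110 in flox and 260, 479 and 221 in AKO mice (1.33, standard error 0.162). Without the PC1 covariate the log2 fold change of Kng1 was 2.16, and those of Kng2 and Eif4a2 were 1.07 and 0.88. All 3 rose at an adjusted p of 0.0248 in limma. Without flox replicate 3 the adjusted p in limma was 0.330 for Kng2, 0.349 for Eif4a2 and 0.276 for Kng1, and without AKO replicate 1 it was 0.235 for all 3, while the fold changes stayed positive. Between them, 8 consecutive peaks over 60.4 kb were higher in every AKO mouse, with log2 fold changes from 0.80 to 2.01. In flox mice these peaks were small, at 2.61 to 67.3 normalized reads.

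The AKO mice carry the Adiponectin-Cre transgene and the flox mice do not, and Adipoq, whose regulatory DNA drives it, lies 43.5 kb beyond the end of this run. The 3 peaks assigned to Adipoq were also higher in every AKO mouse, and the one over its start held 909, 903 and 986 normalized reads in flox and 1164, 1238 and 1244 in AKO mice. Further copies of this DNA from the transgene and more open chromatin cannot be told apart. The Eif4a2 promoter peak held 940, 712 and 634 normalized reads in flox and 1308, 888 and 1232 in AKO mice, and in the inguinal aliquots the peak there held 292, 251 and 287 in flox and 418, 461 and 429 in AKO samples.

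The other higher genes had smaller differences. Piwil1, an Argonaute gene of the germ line, had 2 higher peaks among 4, and its sum was 113, 106 and 149 normalized reads in flox and 241, 311 and 229 in AKO mice (log2 fold change 0.78, adjusted p = 0.109 in limma). Ptp4a3, which encodes a membrane-bound tyrosine phosphatase, had 4 among 8 and summed to 1954, 1832 and 1636 in flox and 2296, 2190 and 2573 in AKO mice (0.52, adjusted p = 0.160 in limma, 0.00468 in DESeq2). The noncoding gene 1700028D13Rik had 3 among 4, and the 4 peaks of Mir6403, which lie in the neighbouring gene Man1c1, were all higher. The peaks of Derl3 reach into Smarcb1, which encodes another SWI/SNF subunit, and their sum overlapped between genotypes, at 1639, 1606 and 1238 in flox and 1900, 1458 and 1846 in AKO mice. Artn, which encodes a neurotrophic ligand of the GDNF family, and Lingo1 had the most higher peaks, 6 of 10 and 6 of 9, with sums of 1191, 1222 and 1305 against 1530, 1644 and 1597 for Artn and of 959, 1048 and 1109 against 1163, 1478 and 1267 for Lingo1. Both were chosen after their values had been seen, and their adjusted p in limma was 0.386 and 0.695.

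Gene lists of the tissue's functions were then counted by their peaks. No gene of the lists passed 0.1 in limma, and with PC1 in DESeq2 Dio2, Ppargc1a, Mogat2, Col1a2 and the glycogen synthase gene Gys2 did. Lower peaks made up 16 of the 48 peaks (33.3%) of genes of lipolysis and lipid droplets, and 0 peaks were higher, where all peaks held 8.84% and 8.77%. They were led by Plin2, a coat protein of lipid droplets (6 of 10), and G0s2, an inhibitor of triglyceride lipase (4 of 4). The sum of G0s2 was 4016, 4214 and 3614 normalized reads in flox and 3128, 1931 and 2782 in AKO mice. Of the peaks of fatty acid oxidation genes, 21 of 71 (29.6%) were lower and 2 higher, led by Acsl1 (8 of 22), Hadha, which encodes a subunit of the mitochondrial trifunctional protein (3 of 4), and the fatty acid binding protein gene Fabp3 (3 of 7). Both peaks of Cpt1b, which encodes the enzyme that brings long fatty acids into mitochondria, were lower, and the one at its start held 1842, 1703 and 1588 normalized reads in flox and 1075, 919 and 1008 in AKO mice.

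Of the 197 peaks of thermogenic regulators, 45 (22.8%) were lower and 8 (4.06%) higher, with Ppargc1a, Dio2 and Ppargc1b as the members with the most lower peaks. This list had summed reads of 65982 to 74338 in flox and 50816 to 61806 in AKO mice, which did not overlap. Adrb3, which encodes the β3-adrenergic receptor, had 3 lower among 6 peaks, with a sum of 2724, 2612 and 2466 in flox and 2235, 1765 and 2074 in AKO mice. Oxidative phosphorylation genes had 9 of 45 lower peaks (20%), led by Idh3a of the citric acid cycle with 3 of 6, and genes of glucose and glycogen metabolism had 14 of 70 (20%), led by the hexokinase gene Hk2 with 5 of 15. The lower shares of the circadian clock (16.9%), of insulin and growth hormone signalling (12.7%), of lipid synthesis (11.8%) and of adipocyte identity (11.4%) were nearer to that of all peaks. Higher peaks were 3 of 65 in the clock list and 12 of 205 in insulin and growth hormone signalling. They were 8 of 144 in lipid synthesis and 7 of 132 in adipocyte identity. Oxidative phosphorylation and glucose and glycogen metabolism had 1 higher peak each. In the clock list Per1 had 3 lower among 4 peaks, and in the identity list Plin1 had 3 of 3. Gene sums without overlap were 4 lower and 1 higher in the clock list, and 2 lower and 1 higher in the identity list. The shares depend on signal. Among peaks of 300 or more normalized reads, where 13.4% of all were lower, the counts were 10 of 26 for lipolysis, 14 of 33 for oxidation, 23 of 63 for thermogenic regulators, 7 of 23 for oxidative phosphorylation, 6 of 27 for glucose and glycogen metabolism, 10 of 51 for lipid synthesis, 9 of 48 for adipocyte identity, 6 of 32 for the clock and 3 of 37 (8.11%) for insulin and growth hormone signalling.

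The medians of the lists did not all share the sign of these counts. With PC1 in the fit, the median log2 fold change of a peak was −0.18 for thermogenic regulators, −0.08 for oxidation, −0.05 for lipolysis, −0.01 for adipocyte identity and 0.09 for oxidative phosphorylation. Without PC1 these medians were −0.24, −0.21, −0.27, −0.17 and −0.23, where the median over all peaks was −0.01. The median signal of their peaks was 178, 288, 392, 198 and 302 normalized reads, in the same order, against 125 over all peaks. All peaks of 300 or more normalized reads had medians without PC1 from −0.13 within 1 kb to −0.23 beyond 100 kb. The part of signal in the medians of the lists was not tested. With total reads in peaks as the scale, 36 thermogenic, 15 lipolysis and 19 oxidation peaks were lower and 8, 1 and 3 higher. In whole tissue, fewer adipocyte nuclei and less open chromatin per adipocyte nucleus cannot be told apart.

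Among markers of other cell types, higher peaks were as many as lower peaks or more in every list but that of macrophages. This balance was not that of the peaks of 300 or more normalized reads, of which 5 of 13 (38.5%) nerve peaks were lower, the share of the lipolysis list, and 1 higher, and 2 of 7 smooth muscle peaks were lower and 0 higher. The other cell type lists had 12 such peaks (matrix and fibroblast, 1 lower) or 4 and fewer. Of 62 endothelial peaks, 2 (3.23%) were lower and 6 (9.68%) higher, and the summed reads of the list were 6454 to 7246 in flox and 7246 to 8475 in AKO mice. Matrix and fibroblast genes had 6 lower and 11 higher among 70 peaks, with Pdgfrb and Thy1 at 3 higher peaks each and Col1a2 at 2 lower peaks, and the sums of the list overlapped (10046 to 10902 in flox, 10382 to 10777 in AKO mice). Nerve genes had 5 lower and 7 higher among 47, smooth muscle genes 4 and 4 among 38, lymphocyte genes 1 and 1 among 30, and macrophage genes 2 and 1 among 18. Skeletal muscle genes had 3 lower and 5 higher among 32 peaks, and 8 of the 18 genes of this list had no peak, as had 9 of 16 lymphocyte and 5 of 16 macrophage genes. Summed reads of these lists overlapped between genotypes, with 8697 to 9593 in flox and 8467 to 9582 in AKO mice for nerve, 8518 to 9237 and 7229 to 8645 for smooth muscle, 4557 to 4892 and 4427 to 5310 for lymphocytes, 3723 to 4488 and 3548 to 3758 for macrophages and 5014 to 5088 and 4805 to 5403 for skeletal muscle. Of the 91 peaks of SWI/SNF subunits, Smarcd1 included, 3 (3.3%) were lower and 7 (7.69%) higher, and 0 of the 31 with 300 or more normalized reads were in either group. The part that the makeup of the tissue had in the results above was not tested.

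**Figure D5:**
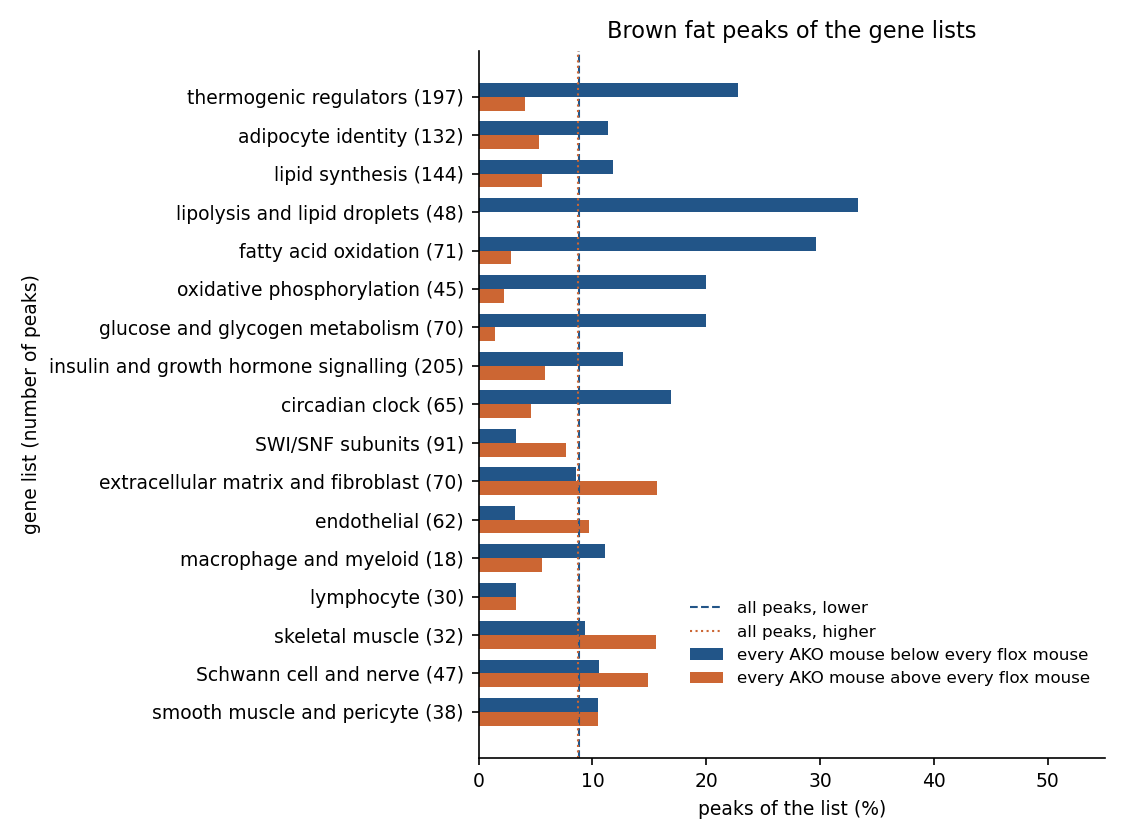
Share of the peaks of each gene list (x axis, %) at which every AKO mouse was below (blue bars) or above (orange bars) every flox mouse, with the number of peaks in brackets and with the shares over all peaks, 8.84% and 8.77%, as dashed and dotted lines. The blue bars of lipolysis and lipid droplets, fatty acid oxidation and thermogenic regulators reach 33.3%, 29.6% and 22.8%.

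Letters of nuclear receptor sites were counted in the middle 200 bases of every peak, on both strands. A DR1 match with up to 2 mismatches was present in 4.56% of all peaks, in 5.99% of the lower and in 3.68% of the higher non-overlapping peaks. Of the 127 lower peaks called by DESeq2 it was in 18 (14.2%), and of the 47 higher ones in 2 (4.26%). The NBRE letters AAAGGTCA, part of which a DR1 match can share, were in 1.95% of all peaks, 3.19% of lower and 0.857% of higher ones. Among peaks beyond 1 kb with 300 or more normalized reads, DR1 was in 5.51% of all, 6.73% of lower and 2.5% of higher peaks. For comparison, the EBF letters TCCC and GGGA with 2 bases between them were in 1.84%, 1.72% and 2.26% of all, lower and higher peaks, the C/EBP letters TTGCNNCAA in 1.59%, 1.7% and 1.27%, and the NF1 letters TTGGC and GCCAA with 5 bases between them (1 mismatch allowed) in 1.43%, 1.39% and 0.838%. The median GC content of the window was 53.0% in all peaks, 49.5% in lower and 56.5% in higher ones, and the part of base composition in these shares was not tested.

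Outside the marked genes, the DR1 peaks among the lower DESeq2 calls were led by a peak 139551 bp beyond the start of Ly86, with 536, 599 and 498 normalized reads in flox and 192, 359 and 228 in AKO mice. The others included the Ppargc1b side of A530050N04Rik, the promoters of Cpt1b and of Lncbate1, a noncoding RNA of brown adipocytes, and peaks assigned to Neurod1, Ctcflos, Gpr39, 4930591E09Rik and Rnf152. At Lncbate1 the peak held 943, 989 and 886 normalized reads in flox and 545, 601 and 558 in AKO mice. None of the 7 other sequences shown above held a DR1 or NBRE match.

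The same regions were then looked up in inguinal fat, in samples that the choice of regions did not use. An inguinal peak overlapped 53.8% of all brown fat peaks, 54.5% of the lower and 53.0% of the higher ones. Of the overlapped peaks in general, 9.02% were lower and 11.7% higher in every inguinal AKO aliquot. The shares were near these for all non-overlapping peaks of brown fat, with 11.9% lower and 9.39% higher among its lower peaks and 7.53% lower and 14.1% higher among its higher peaks. The few DESeq2 calls differed more from them. Of the 63 lower peaks called by DESeq2 that overlapped an inguinal peak, 16 (25.4%) were lower in every inguinal AKO aliquot and 3 (4.76%) higher. Of the 28 higher peaks with an overlap, 17 (60.7%) were higher in every inguinal AKO aliquot and 0 lower. Without the peaks at Kng2, Kng1 and Eif4a2 it was 15 of 26. The brown fat calls are adjusted for PC1, and at some of these peaks the brown fat genotypes overlapped. The Gfod2 peak, among the 17, held 640, 303 and 204 normalized reads in brown fat of flox and 567, 147 and 331 in that of AKO mice. A peak over an untranslated region of Mgat5b, a glycosyltransferase gene, held in brown fat 415, 450 and 454 normalized reads against 856, 784 and 765 in AKO mice, and 98.4, 109 and 129 against 163, 136 and 141 in inguinal fat. A peak upstream of Tprg held 299, 358 and 464 against 204, 209 and 182 in brown fat, and 136, 92.3 and 103 against 41.5, 43.4 and 54.5 in inguinal fat. Both differed the same way in all samples of the 2 depots. The inguinal aliquots of a genotype are 1 tissue pool, so that their spread is technical.

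In inguinal fat, limma without PC1 called 98 lower (1.98%) and 100 higher (2.02%) of 4950 genes with 3 or more peaks, over aliquots of 1 pool per genotype. With PC1 as in brown fat it called 0 and 0. With 1 pool per genotype, PC1 can carry the difference between the pools itself, so that the fit with it decides nothing here. Of the 19 genes named from brown fat, 9 had 3 or more inguinal peaks, and 0 of these passed, with a smallest adjusted p of 0.156 in limma, that of Derl3. The inguinal sums of Ptp4a3 were 721, 841 and 771 normalized reads in flox and 939, 861 and 970 in AKO aliquots, higher in every AKO aliquot as in brown fat, and this held also for Mir6403.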

How the data were processed

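ATAC-seq reads were, per the study's methods, aligned by the authors with bwa 0.7.17-r1188 to mm10, filtered with Picard 2.8.14 and for mapping quality 30, and counted in MACS2 2.1.1.20160309 broad peaks found in at least 2 of 3 replicates. The deposited values are a signal, reads per peak divided by DESeq2 1.20.0 size factors, and whole reads, within 3.3e-06 of a whole number, were recovered for 100% of them. The deposited fold changes, standard errors, statistics, p-values and adjusted p-values of the authors were not used.

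Log2(normalized reads + 1) was tested with limma 3.58.1 (R 4.3.3), two-sided, with PC1 (55.6% of the variance) as covariate and Benjamini-Hochberg adjustment over all peaks or genes. Recovered reads were tested with DESeq2 1.42.0 and edgeR 4.0.16. Fold changes are on this log2 scale, which understates those of small peaks. Scripts were tested on simulated data. Members and lists were chosen with earlier results of these data known. Named genes were the concordant genes outside the marked ones with the smallest p, and 1 gene picked by this rule and 1 peak sequence are not reported here. The labels do not say whether replicate numbers pair the mice, and the main fit treated the mice as unpaired. Concordance, scaling, filters, pseudocounts, covariates and left-out mice were varied.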

Additional observations from a re-analysis of the deposited data

Results flagged for a closer look

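At 2 of the named genes every AKO sample lay on opposite sides of the flox samples in the 2 depots. The summed reads of Dio2 had a log2 fold change of −0.62 in brown fat and 0.18 in inguinal fat, where 5 peaks summed to 140, 143 and 151 normalized reads in flox and 165, 171 and 156 in AKO aliquots. Those of Mogat2 had −0.6 in brown fat and 0.25 in inguinal fat, where 4 peaks summed to 640, 614 and 637 in flox and 810, 776 and 675 in AKO aliquots. The difference between depots was not tested, and neither gene passed 0.1 in inguinal fat (adjusted p = 0.236 and 0.163 in limma). The inguinal mice were cold-acclimated and pooled, so that depot, housing and pooling cannot be told apart.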

How the results depend on the processing

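Limma called 0 peaks in either direction, DESeq2 with PC1 127 lower and 47 higher, DESeq2 without PC1 303 and 300, edgeR 67 and 17, and limma with a pseudocount of 10 called 1 lower. Of genes, limma called 1 lower and 3 higher, against 10 and 6 without PC1, 77 and 26 in DESeq2, 194 and 89 in DESeq2 without PC1, 30 and 10 in edgeR, 24 and 5 with total reads in peaks, 10 and 0 among genes with 5 or more peaks, and 28 and 4 with a replicate block, which called 0 peaks. Lower genes were 4 with at least 10 reads in every sample, 4 with a pseudocount of 10 and 0 at a threshold of 0.05. Leaving out 1 mouse gave 0 to 22 lower and 0 to 10 higher genes. Inguinal genes went from 98 and 100 to 0 and 0 with PC1, which can carry the difference between the pools itself there. Concordant genes were 88 and 172 with total reads in peaks, 57 and 19 among genes with 6 or more peaks (chosen after seeing the data), and 241 to 347 and 184 to 471 without 1 mouse, since fewer mice are easier to separate. Apart from that construction, the cause of these changes was not tested. The gap in the lower share between the farthest and the nearest peaks was 3.21 points with total reads, −2.13 to 10.3 without 1 mouse, and 11.8 and 18.1 in peaks of 100 to 300 and of 300 or more reads (classes chosen after seeing the data). That in the higher share was −4.64 with total reads, −4.4 to 0.632 without 1 mouse (0.632 without flox replicate 3, 0.623 without AKO replicate 3), and −13.5, −13.7 and −1.38 in the 3 signal classes. The difference in reads within 1 kb was −1.93 to 0.646 without 1 mouse, 0.262 without flox replicate 1 and 0.646 without AKO replicate 2. Of 293 values of the 19 named genes under alternatives, 225 kept their side of the threshold, 62 came to pass it, 6 no longer passed and 0 turned. Of the named genes, 0 passed without flox replicate 3 or without AKO replicate 1, Kng2, Eif4a2 and Kng1 included. Depth, lowest in AKO replicate 2, and 3 mice a group limit what small peaks can show.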
